A study of Mus musculus with 6 samples.

Results

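The genes described here are 41 genes of interferon signalling and class I antigen presentation. They were chosen by name as a functional list, with earlier results of these data known. All 41 were found by gene symbol among the 52249 genes of the count table. They were measured in organoids of mouse intestine, a culture of epithelial cells in matrix, by 3′ mRNA sequencing, a method that counts transcripts near their polyadenylated end. Every library came from Apc-knockout organoids, which lack the brake that Apc puts on WNT signalling, and the 3 control libraries carried no other labelled change. The 3 other libraries were labelled as also overexpressing IGF2BP3, an RNA-binding protein that stabilises bound mRNAs, and are called OE-labelled here. The labels do not give the promoter or species of the IGF2BP3 construct, the age or strain of the mice, or whether the libraries of a group came from separate cultures, so p-values measure only the spread between these libraries. The labels name no interferon or other cytokine treatment. Apc itself was counted at 75.6 to 83.9 CPM in control and was lower, at 59.4 to 64.0 CPM, in OE-labelled libraries (log2 fold change -0.37, adjusted p = 0.0323 by edgeR); counts at the transcript end do not check a mutation elsewhere in the gene.

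Interferons are secreted proteins that bind paired receptors at the cell surface and activate JAK kinases and STAT transcription factors, which switch on interferon-stimulated genes. Many of these genes carry an interferon-stimulated response element in their promoter, bound by STAT and IRF proteins, and their products block viruses or help to load peptides onto class I molecules. In the intestinal epithelium this programme serves antiviral defence, and class I presentation lets T cells survey epithelial and tumour cells.

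Libraries held 2180116 to 2519917 counts each. Levels are given as CPM, the count relative to the library total after scaling by TMM factors, and a floor of 3 counts corresponds to 1.18 to 1.41 CPM, for counting error only. The biological coefficient of variation was 3.2% for the control and 17.1% for the OE-labelled group. Library names put the control libraries in one series and the OE-labelled libraries in another, so library series and group cannot be told apart in any result below. Igf2bp3 itself gave 1, 0 and 0 counts in the control and the same numbers in the OE-labelled replicates, under the floor, which gives no check of the label.

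The tissue label was examined through marker genes. The epithelial genes Epcam and Cdh1 had at least 924 and 2281 counts in every library. Of the intestinal genes, Vil1 had 145 to 288 counts and Cdx2 11 to 36, while Krt20 and Cdx1 had 0 counts in all 6. The 11 epithelial markers summed to between 4275 and 4503 CPM in control and between 5597 and 6330 CPM in OE-labelled libraries. Of the 9 that were tested, 5 were called higher and 1 lower, when 29.2% of all genes tested were called. Of 24 leukocyte markers, 16 had 0 counts in all libraries, Cd3e and Adgre1 among them, and Ptprc had at most 2 counts. The summed leukocyte level was 42.2 to 53.0 CPM in control and 62.6 to 78.2 CPM in OE-labelled libraries, nearly all of it from Csf1r and Cd68. Csf1r was called higher (log2 fold change 0.68, adjusted p = 0.0061 by edgeR) and Cd68 was not called. The 11 fibroblast and 5 endothelial markers had at most 3 counts in any library. The part of these marker differences in the results below was not tested. In bulk RNA, fewer cells of a type and less RNA per cell cannot be told apart.

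Of the 41 members, 31 passed the count filter and were tested. Between the groups, 9 of the 31 differed at an edgeR adjusted p below 0.05, which is 29.0%, against 29.2% of all 10687 genes tested. The interferon and antigen presentation genes were thus called at the background rate in this fit. In the OE-labelled libraries Ifi27, Ifitm2, Isg20, Tapbp, Adar and Irf7 rose, and Bst2, B2m and Irf2 fell. The 6 higher members make 19.4% of those tested (16.5% of all genes), and the 3 lower members 9.68% (12.7% of all genes). The median log2 fold change of the tested members was 0.009, against 0.041 for all genes, and 16 members had a positive and 15 a negative sign. Control and OE-labelled CPM ranges were apart for 15 of the 31 members (48.4%; 45.7% of all genes), 8 of them higher and 7 lower in OE-labelled libraries. These 15 include the 9 called members and 6 that did not pass the test. Without control replicate 1, 2 or 3, 5 members were called (16.1%), when 17.3%, 16.8% and 15.9% of all genes were, and 1 of them was lower; without OE-labelled replicate 1, 6 were lower.

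**Figure D1:**
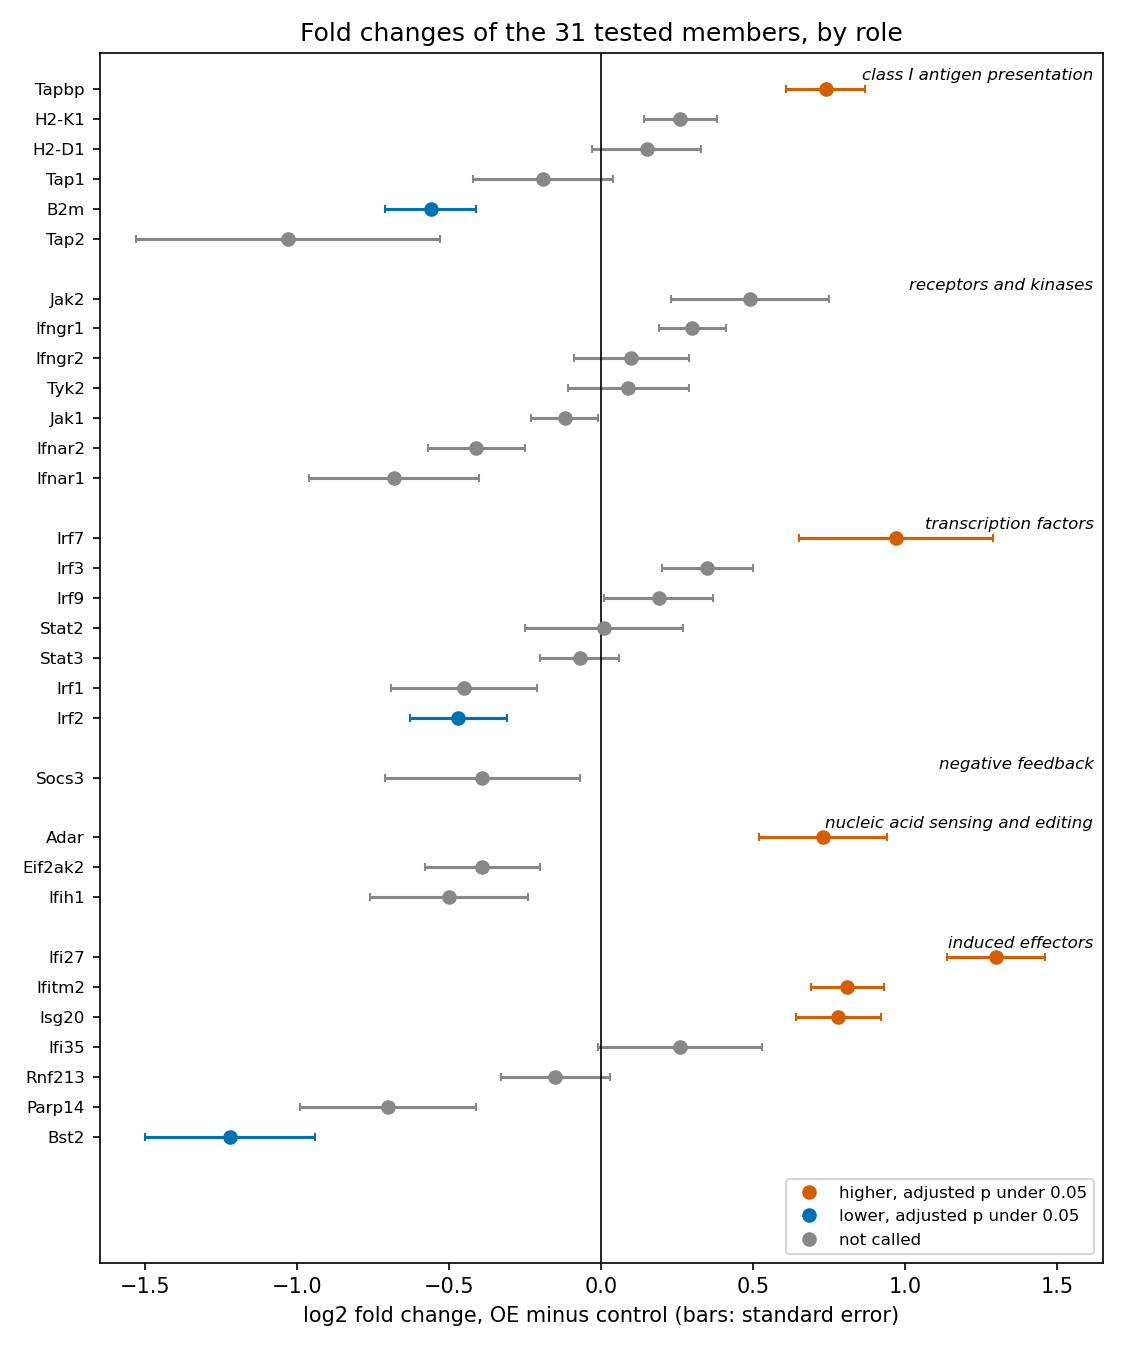
Log2 fold change (horizontal axis, OE-labelled minus control, bars are standard errors) of the 31 tested members grouped by role; orange and blue mark the 6 higher and 3 lower members with an adjusted p below 0.05. Every role with more than 1 tested member holds fold changes of both signs, from -1.22 for Bst2 to 1.3 for Ifi27.

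Promoter windows of 35 members (43 windows, 250 bases before to 50 after a start, RefSeq annotation of GRCm38.p6) were searched for the letters of the interferon-stimulated response element, GAAA, any 2 bases and GAAA again, on both strands. These letters occurred for 13 of the 35 members (37.1%), against 3.99% of 27025 genes with a window of that length. They were in the windows of 7 of 28 tested members and of 6 of 7 members under the count filter (H2-T23, Ifit1, Ifit3, Ifitm3, Isg15, Socs1). The letters TTC, any 3 bases and GAA, bound by STAT dimers, occurred for 12 of the 35 members (34.3%), against 9.55% of genes; the 2 patterns can overlap. Of the 9 called members, 8 had a window, and 4 held the response element letters: Ifitm2, which rose, and Bst2, B2m and Irf2, which fell. The 2 free bases of the match were AG in Ifitm2, CT in B2m, AT in Irf2 and both AT and CT in Bst2. For these members the 250 bases before the start are shown in the direction of transcription, with the matching letters in capitals.
Ifitm2 (chr7:140955962-140956211, minus strand): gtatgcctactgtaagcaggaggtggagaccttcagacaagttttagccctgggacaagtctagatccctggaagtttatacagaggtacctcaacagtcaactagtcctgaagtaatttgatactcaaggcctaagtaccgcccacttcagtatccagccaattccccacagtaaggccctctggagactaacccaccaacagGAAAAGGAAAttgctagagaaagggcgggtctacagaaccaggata
Bst2 (chr8:71537473-71537722, minus strand): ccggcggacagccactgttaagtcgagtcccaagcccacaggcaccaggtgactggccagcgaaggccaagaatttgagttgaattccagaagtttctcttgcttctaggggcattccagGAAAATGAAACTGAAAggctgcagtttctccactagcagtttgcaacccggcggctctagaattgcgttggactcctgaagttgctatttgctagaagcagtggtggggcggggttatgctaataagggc
B2m (chr2:122147437-122147686, plus strand): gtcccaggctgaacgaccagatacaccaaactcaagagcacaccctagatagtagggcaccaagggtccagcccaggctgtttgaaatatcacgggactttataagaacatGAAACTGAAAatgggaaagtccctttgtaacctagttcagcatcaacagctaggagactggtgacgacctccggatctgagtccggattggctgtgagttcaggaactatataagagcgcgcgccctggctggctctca
Irf2 (chr8:46739495-46739744, plus strand): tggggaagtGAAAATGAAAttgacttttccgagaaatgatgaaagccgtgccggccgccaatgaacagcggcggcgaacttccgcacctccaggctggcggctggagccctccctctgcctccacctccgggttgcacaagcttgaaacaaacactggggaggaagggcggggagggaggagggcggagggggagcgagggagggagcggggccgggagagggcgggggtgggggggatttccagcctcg
In Bst2 2 matches overlap, starting 130 and 124 bases before the start, while the match begins 46 bases before the start in Ifitm2, 139 in B2m and 241 in Irf2. The windows of Isg20, Tapbp, Adar and Irf7 held no response element letters. The letters bound by STAT dimers occurred for 4 of the 8 called members with a window: Adar, Bst2, Irf2 and Isg20. A match is a description of the sequence, and binding was not measured.

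The programme starts with ligand and receptor. None of 6 interferon genes looked up beside the members (Ifnb1, Ifng, Ifnk, Ifne, Ifnl2, Ifnl3) had a count in any library. The 4 receptor chains and 3 kinases among the members were all tested, and 0 of 7 passed edgeR's test (3 had an unadjusted p below 0.05) or DESeq2's. Of all genes tested, 29.2% passed edgeR's test. Ifnar1 and Ifnar2 encode the chains that together bind type I interferons. Ifnar1 was counted at 16.1, 13.6 and 16.6 CPM in control replicates 1, 2 and 3, in that order here and below, and at 11.3, 5.51 and 12.3 CPM in the OE-labelled replicates (log2 fold change -0.68, SE 0.28, adjusted p = 0.0915 by edgeR). Ifnar2 stood at 49.8, 43.6 and 48.8 CPM without and 40.5, 29.5 and 37.2 CPM with the OE label (-0.41, SE 0.16, adjusted p = 0.068 by edgeR). For both chains all OE-labelled values lay below all control values. Without OE-labelled replicate 1 the adjusted p was 0.0329 for Ifnar1 and 0.0111 for Ifnar2, and without OE-labelled replicate 3 it was 0.0474 for Ifnar1 (edgeR). Ifnar2 also passed edgeR's test with an offset for transcript length (0.035) and without mitochondrial genes and CT010467.1 (0.0416). Without OE-labelled replicate 2 the log2 fold changes were -0.42 and -0.31 (edgeR adjusted p of 0.243 and 0.183). Without single control libraries the edgeR adjusted p was 0.134 to 0.23 for Ifnar1 and 0.107 to 0.191 for Ifnar2. Ifnar2 overlaps 1 annotated gene on its own strand, and its counts were fractional in 2 libraries.

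Ifngr1 and Ifngr2 encode the chains of the interferon gamma receptor. Ifngr1, the ligand-binding chain, was counted at 124, 120 and 124 CPM in the control replicates and 165, 139 and 152 CPM in the OE-labelled ones. Its ranges did not overlap, the OE-labelled values being the higher ones. The log2 fold change of 0.3 (SE 0.11) missed the threshold at an edgeR adjusted p of 0.0536. The edgeR adjusted p was 0.0482 without OE-labelled replicate 3 and 0.0267 with library totals in place of TMM factors. Without OE-labelled replicate 1 the log2 fold change was 0.19 (adjusted p = 0.191 by edgeR), and with the length offset 0.16. Ifngr2 had 46.0 ± 4.84 CPM without and 49.4 ± 12.9 CPM with the OE label (SD, n = 3; log2 fold change 0.1, SE 0.19), with overlapping ranges. Ifnar2, Ifnar1 and Ifngr2 lie in one stretch of chromosome 16 (91372783 to 91565623 in GRCm38).

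Jak1, which serves both receptor types, was counted at 172, 138 and 159 CPM in the control replicates and 148, 145 and 139 CPM in the OE-labelled ones (log2 fold change -0.12, SE 0.11). Jak2, which pairs with the gamma receptor, had 13.2 ± 4.73 CPM and 18.4 ± 1.73 CPM (SD, n = 3; log2 fold change 0.49, SE 0.26, adjusted p = 0.183 by edgeR). Tyk2, which pairs with the type I receptor, had 19.2 ± 0.242 CPM and 20.4 ± 3.8 CPM (SD, n = 3; log2 fold change 0.09, SE 0.2). Control and OE-labelled ranges overlapped for all 3 kinases. Outside the list, the lambda receptor chains Ifnlr1 and Il10rb had log2 fold changes of 0.02 and 0.39 and were not called.

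**Figure D2:**
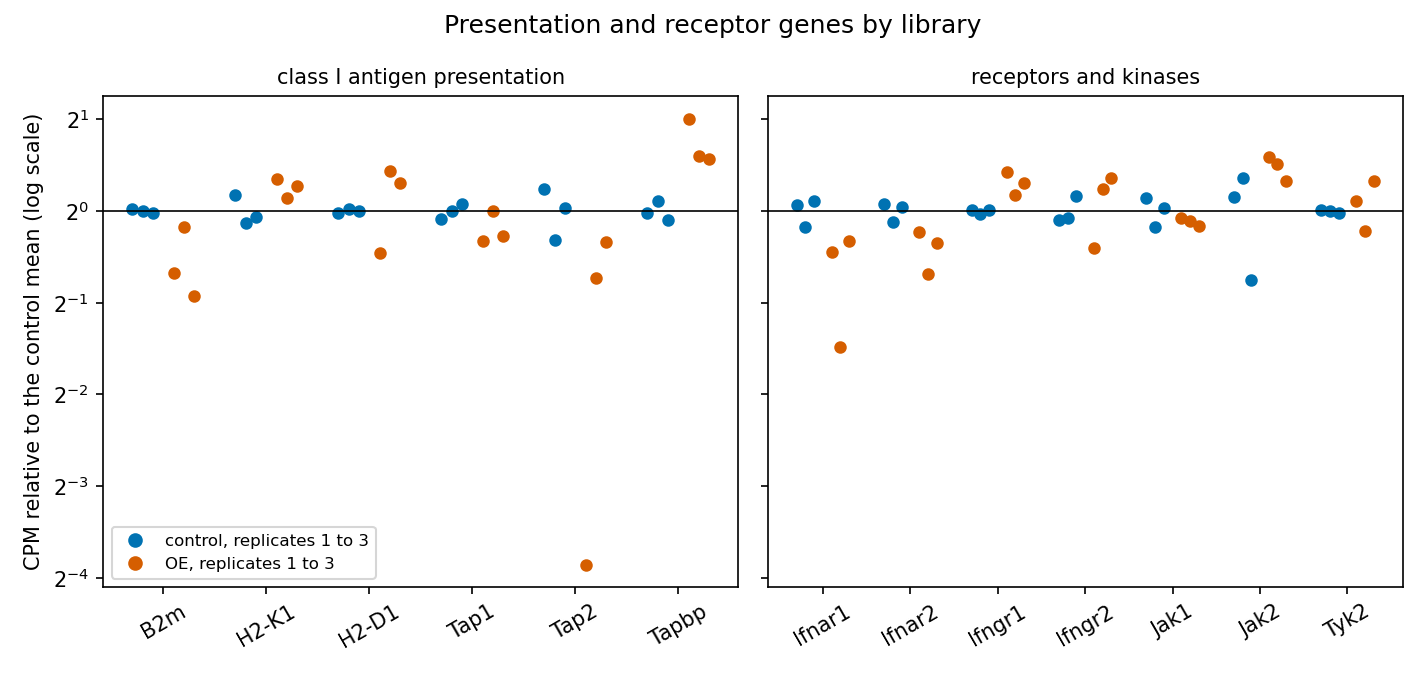
CPM of each library divided by the control mean of the gene (vertical axis, log scale) for the 6 tested class I presentation genes and the 7 receptor and kinase genes; blue points are control and orange points OE-labelled replicates 1 to 3. All OE-labelled points lie above all control points for Tapbp and Ifngr1, and below them for B2m, Tap2, Ifnar1 and Ifnar2. OE-labelled replicate 1 has the lowest Tap2 value, at 0.405 CPM.

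Among transcription factors, 7 of 7 members were tested, 1 rose and 1 fell (28.6% called, against 29.2% of all genes). Irf7, a factor that amplifies type I interferon production and is itself interferon-inducible (ENSMUSG00000025498, minus strand of chromosome 7, GRCm38 positions 141262706 to 141266481), was counted at 5.53, 2.81 and 4.61 CPM without and 8.51, 8.26 and 8.88 CPM with the OE label. All OE-labelled values lay above all control values, and the rise was 1.96-fold (log2 fold change 0.97, SE 0.32, adjusted p = 0.0346 by edgeR). It rested on 12, 6 and 10 control counts and 21 counts in each OE-labelled library. The call was lost in 10 of 19 alternatives, with DESeq2's test among them (adjusted p = 0.18, the highest) and with each of the 6 libraries left out in turn (adjusted p from 0.0522 to 0.15, the highest without control replicate 2).

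Irf2, which competes with the activator Irf1 for the same promoter elements (ENSMUSG00000031627, plus strand of chromosome 8, GRCm38 positions 46739732 to 46847458), was counted at 95.4, 97.1 and 91.2 CPM in the control replicates and 87.1, 60.6 and 57.5 CPM in the OE-labelled ones. OE-labelled replicate 1 lay near the control values and replicates 2 and 3 well below them. The log2 fold change was -0.47 (SE 0.16, adjusted p = 0.0388 by edgeR). This call too was lost in 9 of 19 alternatives: without control replicates 1, 2 or 3 (adjusted p 0.113, 0.124 and 0.0964), without OE-labelled replicates 2 or 3 (0.134 and 0.087), with library totals in place of TMM factors (0.053), and with offsets for GC content or length (edgeR adjusted p up to 0.171).

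The factors that form or act beside the STAT complex were not called. Stat2 and Irf9 are parts of the complex that binds the response element. Stat2 was counted at 20.7 ± 4.9 CPM without and 20.9 ± 6.42 CPM with the OE label (log2 fold change 0.01, SE 0.26), and Irf9 at 35.5 ± 8.33 and 40.6 ± 4.48 CPM (0.19, SE 0.18; SD, n = 3). The sign of Stat2 changed in 10 of 19 alternatives. Stat3, which carries cytokine signals such as those of the IL-6 family, had 214, 227 and 203 CPM in the control replicates and 204, 243 and 167 CPM in the OE-labelled ones (-0.07, SE 0.13), and its sign changed with the length offset and without OE-labelled replicate 3. Irf3, the factor downstream of nucleic acid sensors, had 38.5 ± 3.85 and 48.9 ± 5.16 CPM (SD, n = 3; log2 fold change 0.35, SE 0.15, adjusted p = 0.0972 by edgeR), with no overlap between groups. Irf1, an activator of class I genes, had 47.5, 44.6 and 40.1 CPM without and 32.4, 45.2 and 18.6 CPM with the OE label (-0.45, SE 0.24, adjusted p = 0.182 by edgeR). Its OE-labelled replicate 2 lay among the controls, and without that library the log2 fold change was -0.81 (adjusted p = 0.0372 by edgeR), while without OE-labelled replicate 3 it was -0.18 (0.465).

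Class I antigen presentation was the layer with the highest counts behind it. Tapbp encodes tapasin, which bridges class I molecules to the peptide transporter (ENSMUSG00000024308, plus strand of chromosome 17, GRCm38 positions 33915899 to 33929292). It was counted at 132, 144 and 125 CPM in the control replicates and 269, 203 and 199 CPM in the OE-labelled ones. Every OE-labelled library lay above every control library, and the rise was 1.67-fold (log2 fold change 0.74, SE 0.13, adjusted p = 0.00161 by edgeR). The call held in all 19 alternatives, with log2 fold changes from 0.49 to 0.82. Another annotated gene overlaps Tapbp on either strand, and the Tapbp counts can include reads of another gene.

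B2m encodes the light chain shared by class I molecules (ENSMUSG00000060802, plus strand of chromosome 2, GRCm38 positions 122147686 to 122153083). It was counted at 401, 394 and 390 CPM without and 247, 349 and 208 CPM with the OE label. The control libraries lay close together, and all OE-labelled libraries lay below them with a wide spread. The log2 fold change was -0.56 (SE 0.15), a decrease that passed edgeR's test at an adjusted p of 0.0174. With the GC offset the log2 fold change was -0.32 (adjusted p = 0.173 by edgeR), and leaving out control replicate 1, 2 or 3 gave adjusted p of 0.0689, 0.0653 and 0.0636. The longest B2m transcript has a GC content of 41.2%, the lowest among the tested members.

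The class I heavy chains were not called. H2-K1 was counted at 134, 109 and 114 CPM in the control replicates and 152, 131 and 144 CPM in the OE-labelled ones (log2 fold change 0.26, SE 0.12, adjusted p = 0.124 by edgeR). H2-D1 had 171, 177 and 174 CPM without and 127, 236 and 215 CPM with the OE label (0.15, SE 0.18, adjusted p = 0.573 by edgeR). OE-labelled replicate 1 was the only OE-labelled library below the controls for H2-D1. Without it the log2 fold change was 0.32 and passed (adjusted p = 0.0184 by edgeR), and without OE-labelled replicate 2 it was -0.06. Sequence shared with other annotated genes makes these counts uncertain, to unlike degrees. Of the 50-base words in the last 400 bases of the transcript, 12.3% for H2-D1 and 40.2% for H2-T23 also occur in other genes. The genes sharing the most words include Fam173b and Terf1, outside the class I family, for H2-D1. For H2-T23 they include Rab33b and Hook2, also outside it, and H2-Bl. For H2-K1 the share was 0.6%, all of it with H2-D1. H2-T23, a non-classical class I gene, had at most 4 counts per library.

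The peptide transporter and the class I activator gave low counts. Tap1 had 12.2 ± 0.689 CPM in the control replicates and 10.7 ± 1.32 CPM in the OE-labelled ones (SD, n = 3; log2 fold change -0.19, SE 0.23). Tap2, its partner, had 15, 10 and 13 counts without and 1, 9 and 11 counts with the OE label (-1.03, SE 0.5, adjusted p = 0.143 by edgeR). The ranges of Tap2 did not overlap in CPM, and OE-labelled replicate 1 stood lowest. Without that library the log2 fold change was -0.57, and without OE-labelled replicate 3 it was -1.53 (adjusted p of 0.293 and 0.0591 by edgeR). Nlrc5, the main transcriptional activator of class I genes, had 0 counts in all 6 libraries, which allows up to 1.18 to 1.41 CPM.

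Nucleic acid sensing and editing contributed 4 members, of which 3 were tested and 1 rose (33.3% called, against 29.2% of all genes). Adar edits adenosines in double-stranded RNA and so limits its detection by sensors (ENSMUSG00000027951, plus strand of chromosome 3, GRCm38 positions 89715022 to 89753446). It was counted at 18.9, 16.9 and 17.5 CPM without and 36.5, 23.2 and 28.7 CPM with the OE label. Groups did not overlap, and the rise was 1.66-fold (log2 fold change 0.73, SE 0.21, adjusted p = 0.0193 by edgeR). DESeq2's test gave an adjusted p of 0.0696, the GC offset 0.0707 (edgeR), and the call was also lost without control replicate 1, 2 or 3 (0.0542, 0.076 and 0.0712) or OE-labelled replicate 1 (0.0725, log2 fold change 0.49). The last 400 bases of the longest Adar transcript lie wholly within Chrnb2, a gene on the opposite strand, so without strand information reads of the 2 genes cannot be told apart.

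The tested sensors among the members, Ifih1 and Eif2ak2, had negative, uncalled fold changes. Ifih1, the sensor of long double-stranded RNA also called MDA5, had 18.2 ± 5.43 CPM in the control replicates and 12.9 ± 2.9 CPM in the OE-labelled ones (SD, n = 3; log2 fold change -0.5, SE 0.26, adjusted p = 0.17 by edgeR), and without OE-labelled replicate 1 the log2 fold change was -0.75 (adjusted p = 0.0374 by edgeR), whereas without control replicate 3 it was -0.23 (0.599). Eif2ak2, the kinase PKR that halts translation on binding double-stranded RNA, had 21.2, 25.3 and 24.9 CPM without and 17.4, 16.5 and 20.7 CPM with the OE label (-0.39, SE 0.19, adjusted p = 0.145 by edgeR), with no overlap between groups. Zbp1, a sensor of left-handed nucleic acids, had 0 counts in all 6 libraries. Of sensors outside the list, Tlr3 had a log2 fold change of 0.3, Ddx58 -0.03 and Cgas -0.16, and none was called.

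Of the 12 induced effectors 7 were tested, 3 rose and 1 fell (57.1% called, against 29.2% of all genes). Ifi27, an interferon-inducible protein of mitochondrial and nuclear membranes (ENSMUSG00000064215, plus strand of chromosome 12, GRCm38 positions 103434211 to 103440239), was counted at 27.7, 21.6 and 24 CPM in the control replicates and 60.4, 53.9 and 66.8 CPM in the OE-labelled ones. The lowest OE-labelled value was well above the highest control value, and the rise was 2.47-fold (log2 fold change 1.3, SE 0.16, adjusted p = 0.000193 by edgeR). Log2 fold changes ran from 1.08 to 1.4 over 19 alternatives, all of which kept the call.

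Ifitm2 encodes a membrane protein that blocks viral entry from endosomes (ENSMUSG00000060591, minus strand of chromosome 7, GRCm38 positions 140954837 to 140955987). It was counted at 53.0, 55.8 and 50.7 CPM without and 94.8, 93.6 and 91.3 CPM with the OE label. Both groups were tight and well apart, a 1.75-fold rise (log2 fold change 0.81, SE 0.12, adjusted p = 0.00052 by edgeR) that kept its call in all 19 alternatives. Of the 50-base words at its transcript end, 25.4% also occur in other annotated transcripts, and 1 gene overlaps it on its strand, so its counts are uncertain. Its neighbour and paralogue Ifitm3 had at most 1 count in any library.

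Isg20, an exonuclease that degrades single-stranded RNA (ENSMUSG00000039236, plus strand of chromosome 7, GRCm38 positions 78913424 to 78920396), was counted at 39.6, 43.2 and 48.8 CPM in the control replicates and 67.7, 73.5 and 85.4 CPM in the OE-labelled ones. No control library reached the OE-labelled range. Isg20 rose 1.72-fold (log2 fold change 0.78, SE 0.14, adjusted p = 0.0018 by edgeR), a call kept in all 19 alternatives.

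Bst2 moved the other way. It encodes tetherin, which holds budding virus particles at the cell surface (ENSMUSG00000046718, minus strand of chromosome 8, GRCm38 positions 71534255 to 71537456). It was counted at 9.68, 15 and 14.3 CPM without and 5.27, 5.51 and 5.92 CPM with the OE label, which rest on 21, 32 and 31 counts against 13, 14 and 14. All OE-labelled values lay below all control values. With a log2 fold change of -1.22 (SE 0.28, adjusted p = 0.00633 by edgeR), Bst2 fell, and it kept its call in all 19 alternatives (log2 fold change -1.43 to -1.1).

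**Figure D3:**
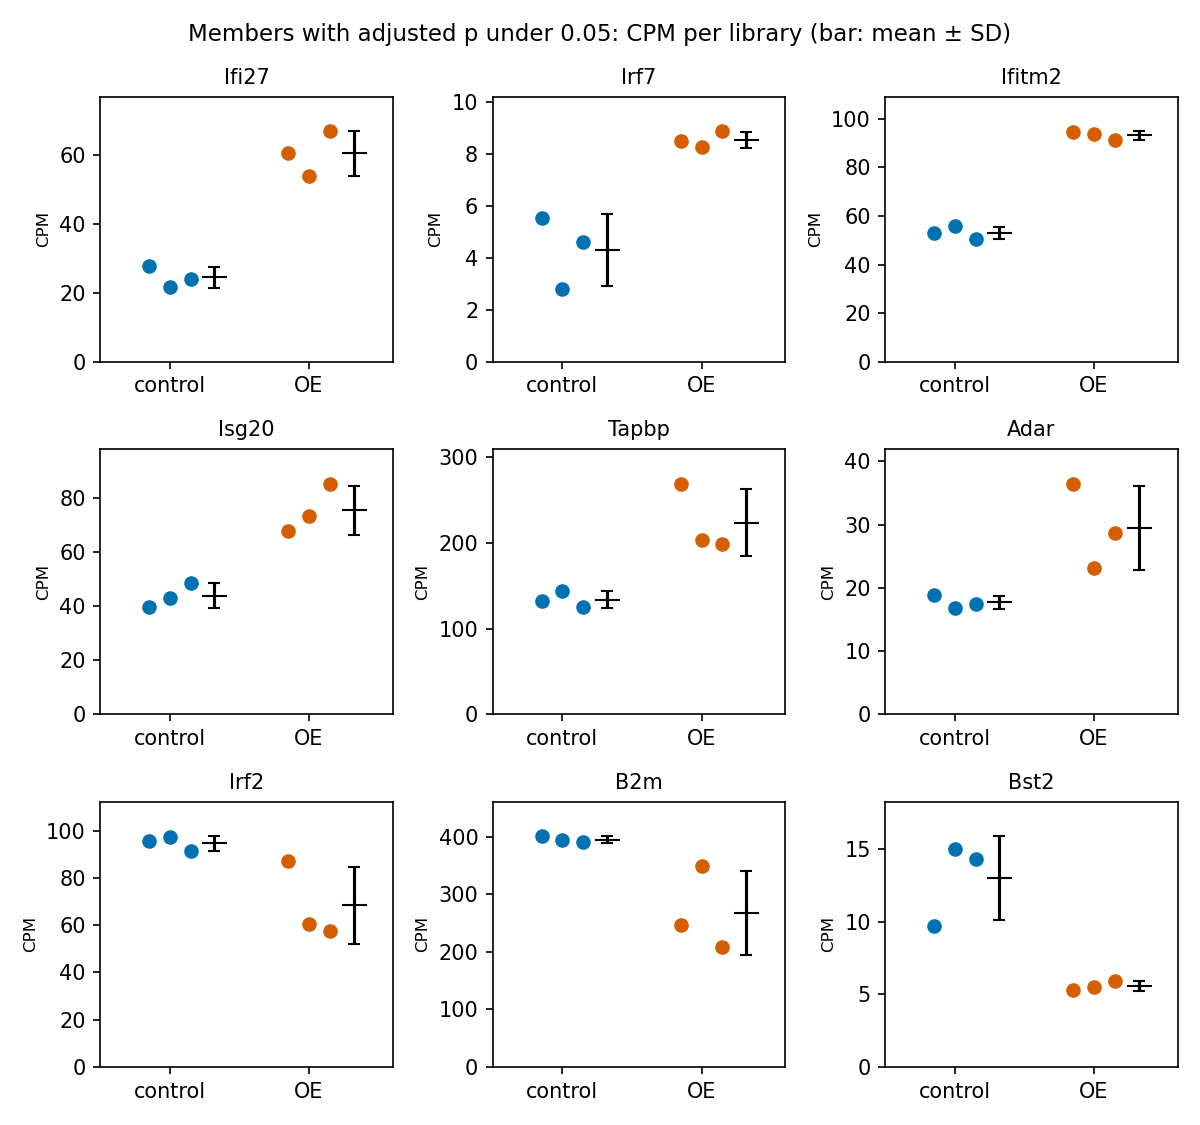
CPM (vertical axes, starting at 0) of the 9 members with an adjusted p below 0.05, in order of fold change; blue points are control and orange points OE-labelled replicates 1 to 3, and bars show the mean ± SD of each group. No gene has overlapping groups, and the OE-labelled libraries spread from 208 to 349 CPM for B2m and from 91.3 to 94.8 CPM for Ifitm2.

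The other tested effectors were not called. Ifi35, a leucine zipper protein, had 10.7 ± 2.38 CPM in the control replicates and 12.8 ± 3.2 CPM in the OE-labelled ones (log2 fold change 0.26, SE 0.27), and Rnf213, a large ubiquitin ligase, had 33.0 ± 4.16 and 29.7 ± 4.5 CPM (-0.15, SE 0.18; SD, n = 3). The sign for Rnf213 was positive with the length offset. Parp14, an ADP-ribosyltransferase, had 19.4, 12.7 and 14.3 CPM without and 7.7, 7.08 and 14.0 CPM with the OE label (-0.7, SE 0.29, adjusted p = 0.0931 by edgeR). OE-labelled replicate 3 reached the control range for Parp14, and without it the log2 fold change was -1.06 (adjusted p = 0.0151 by edgeR); without any one of the other 5 libraries Parp14 was not called.

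Negative feedback could be tested through a single member. Socs3, which inhibits JAK kinases at cytokine receptors, was counted at 34.1, 28.6 and 28.6 CPM in the control replicates and 9.32, 33.8 and 26.2 CPM in the OE-labelled ones (log2 fold change -0.39, SE 0.32, adjusted p = 0.379 by edgeR). OE-labelled replicate 1 lay far below the 5 other libraries, and without it the log2 fold change was -0.07, against -0.82 without OE-labelled replicate 2. With the replicate block and an offset for GC content it was -0.71 (adjusted p = 0.038 by edgeR). Socs1, the inhibitor induced by interferon gamma, had at most 3 counts per library, and Usp18, which removes ISG15 from proteins and dampens the type I receptor, at most 5.

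The 10 members under the count filter include several of the best-known interferon-stimulated genes. Isg15, a ubiquitin-like modifier, had 4, 5 and 5 counts without and 2, 5 and 10 counts with the OE label. Ifit1, which binds RNA lacking a normal cap, had 8, 7 and 7 counts against 10, 9 and 17, and Ifit3, its partner, had 5, 2 and 2 against 11, 10 and 5. In CPM the groups overlapped for Ifit1, with 3.54 in OE-labelled replicate 2 and 3.69 in control replicate 1, and the Ifit3 counts touched at 5. In an edgeR fit without the count filter 0 of the 8 members with a count passed, and Ifit3 alone had an unadjusted p below 0.05 (log2 fold change 0.48 and adjusted p = 0.536 for Ifit1, 1.28 and 0.123 for Ifit3, 0.06 and 0.956 for Isg15). Ifit2 had at most 3 counts, and 5 of the 10 members had at most 3 counts in every library, 2 of them (Nlrc5 and Zbp1) with 0 throughout.

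**Figure D4:**
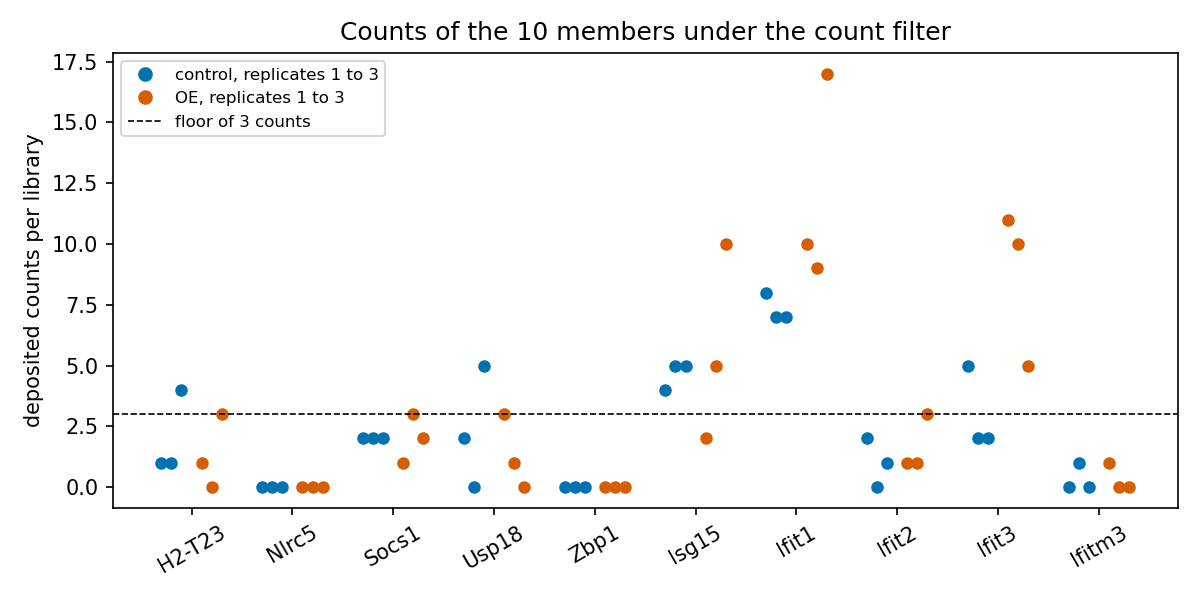
Deposited counts per library (vertical axis) of the 10 members under the count filter; blue points are control and orange points OE-labelled replicates 1 to 3, and the dashed line marks the floor of 3 counts. Ifit1 reaches the highest value, 17 counts in OE-labelled replicate 3, and Nlrc5 and Zbp1 stay at 0.

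Fold changes were also set beside GC content, the share of G and C bases in the longest annotated transcript. The 6 members that rose had transcripts of 52.4% to 57.4% GC, and the 3 that fell had 41.2% (B2m), 46.4% (Irf2) and 55.3% (Bst2). With a per-library offset for GC content, Ifi27, Ifitm2, Isg20, Tapbp and Bst2 kept their calls, 5 of the 31 members (16.1%; 23.2% of all genes), and the members' median was -0.108. The replicate block together with that offset gave 11 called members (35.5%; 25.8% of all genes), 5 of them shared with the 9: B2m, Irf2, Adar and Irf7 were not among them, and Tap2, Ifnar1, Ifnar2, Jak2, Irf1 and Socs3 were. The part of GC content in single fold changes was not tested beyond these fits.

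**Figure D5:**
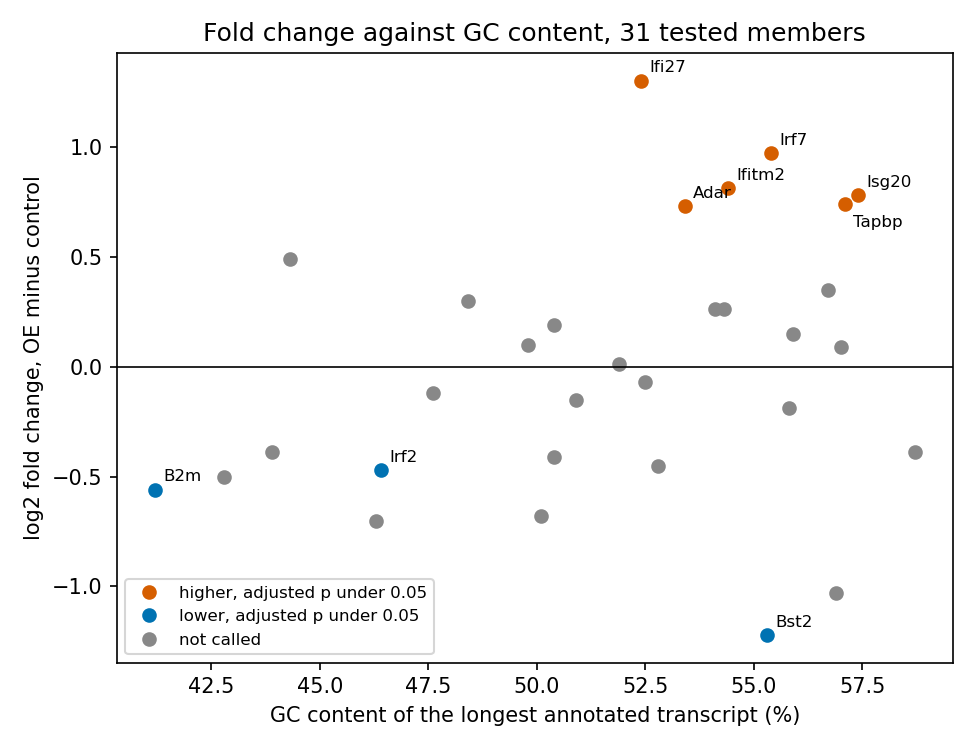
Log2 fold change (vertical axis) against the GC content of the longest annotated transcript (horizontal axis, percent) for the 31 tested members; orange and blue mark higher and lower calls and grey no call. The 6 higher members sit between 52.4% and 57.4% GC, while Bst2, at 55.3%, is the only lower call in that range.

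Spread within groups also differed. Among the tested members the median SD of log2(CPM + 1) was 0.14 for control and 0.24 for OE-labelled libraries, against 0.15 and 0.22 for all tested genes, and 22 of the 31 members varied more among OE-labelled libraries. OE-labelled replicates 1, 2 and 3 held the highest of the 3 values for 11, 7 and 13 members and the lowest for 8, 12 and 11. The median deviation of the members from the control mean was -0.07, 0.04 and 0.03 in OE-labelled replicates 1, 2 and 3, against 0.06, -0.07 and 0 in the controls. The list's median thus stayed within 0.07 of the control mean in each library.

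The wider pathway was described through 133 further genes found in the table. Of these, 65 were tested and 16 passed, 10 higher and 6 lower, which is 24.6% against 29.2% of all genes, with a median log2 fold change of 0.08. Without control replicate 1, 2 or 3 the count was 9, 7 and 9, when 17.3%, 16.8% and 15.9% of all genes were called. Without OE-labelled replicate 2 the count was 9, when 21.2% of all genes were called. Of 21 other induced genes tested, 7 were higher and 2 lower (42.9% called, against 29.2% of all genes). Ifi27l2b, a relative of Ifi27, rose from 6.8 ± 0.501 to 14.7 ± 1.12 CPM, Oasl1, a 2′-5′ oligoadenylate synthetase-like protein, from 8.01 ± 2.91 to 18.1 ± 3.47 CPM, and Lgals3bp, a secreted glycoprotein, from 186 ± 7.83 to 245 ± 32.3 CPM (SD, n = 3, adjusted p of 0.00487, 0.00908 and 0.0222 by edgeR). Uba7, the enzyme that activates ISG15, rose by 0.73 on the log2 scale. Irgm1, an immunity-related GTPase, fell from 6.64 ± 2.07 to 2.58 ± 0.93 CPM, and Samd9l from 83.3 ± 4.73 to 59.2 ± 7.47 CPM (SD, n = 3, adjusted p of 0.0234 and 0.0146 by edgeR).

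Among 13 other antigen processing genes tested, 2 passed (15.4%, against 29.2% of all genes), both lower. They are chaperones of the class I loading pathway that serve many other glycoproteins: Canx fell from 605 ± 5.4 to 399 ± 40.8 CPM and Pdia3 from 301 ± 8.58 to 227 ± 29.6 CPM (SD, n = 3, adjusted p of 0.00122 and 0.0171 by edgeR). The immunoproteasome genes Psmb8 and Psmb9 had at most 2 and 6 counts per library. Class II genes had few counts: H2-Aa, H2-Ab1 and Ciita had 0 counts throughout, and Cd74, the invariant chain, had 3 to 17 counts. Of 11 sensors and adaptors, 1 passed (9.09%, against 29.2% of all genes). It was Mavs, the mitochondrial adaptor of RNA sensors, which rose from 28.1 ± 1.88 to 46.6 ± 3.97 CPM (SD, n = 3, adjusted p = 0.00375 by edgeR).

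Among other factors and regulators, Irf2bp1 and Irf2bp2, both corepressors that bind Irf2, were called in opposite directions. Irf2bp1 rose from 39.3 ± 4.08 to 89.3 ± 12.5 CPM and Irf2bp2 fell from 362 ± 15.7 to 172 ± 34.3 CPM (SD, n = 3, adjusted p of 0.000206 and 0.000215 by edgeR). Socs2, a feedback inhibitor of cytokine signalling, fell by 0.37 on the log2 scale and Rnaseh2a, a subunit of the nuclease that removes RNA from DNA, rose by 0.75. Of the 68 further genes under the count filter, 37 had at most 3 counts in every library, and Mx1, an antiviral GTPase, had 2 to 8 counts.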

How the data were processed

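The table the authors deposited holds estimated counts, not normalized and in part fractional (2843 values), for 6 libraries made with a QuantSeq 3′ forward kit per the labels' protocols. The submitters' processing notes name STAR and HTSeq and the builds mm10 and GRCm38; annotation, strand, multi-mapping reads and molecular identifiers are not given in the sources used here, so a count can hold reads of an overlapping or near-identical gene. Columns were matched to samples by library name, groups and replicate numbers came from sample titles, and counts were rounded. OE-labelled was tested against control by quasi-likelihood in edgeR 4.0.16 (R 4.3.3) without covariates: filterByExpr, TMM factors, and Benjamini-Hochberg adjustment over 10687 genes. Standard errors are |log2 fold change| over the root of F. The fit was checked on simulated counts with the same spread in both groups. The groups here had biological coefficients of variation of 3.2% and 17.1%, so that check does not cover their unequal spread. Positions, GC content and overlaps are from GENCODE M21 (GRCm38, 51989 of the identifiers matched), promoters from RefSeq.

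Members and lists were chosen with earlier results of these data known. All members are reported; those called have values by library. Of the other pathway genes, up to 4 called genes of each list and direction with the smallest p are named, together with some genes at or near 0 counts, chosen after their values were seen. Alternatives were DESeq2 1.42.0, limma-voom (limma 3.58.1), other scalings, filters and thresholds, equal depth, GC and length offsets (loess, span 0.5), removal of mitochondrial genes and the ribosomal RNA gene CT010467.1, unrounded counts, the replicate block and each library left out.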

Additional observations from a re-analysis of the deposited data

How the results depend on the processing

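The count of called members (9) was 5 with the GC offset (23.2% of all genes passed) and 5 at an adjusted p below 0.01 (14.8%), and 5 to 11 when single libraries were left out. It was 5 without any one of the control libraries (15.9% to 17.3% of all genes) and 11, 8 and 10 without OE-labelled replicates 1, 2 and 3 (30.8%, 21.2% and 32.6%). Without a count filter it was 12 of 39 members (30.8%), against 17.3% of all genes. The calls gained there were Ifnar1, Irf1 and Parp14 (adjusted p of 0.0495, 0.0452 and 0.0416 by edgeR). Members called lower (3) numbered 6 without a count filter, 1 with the GC offset, 6 with the replicate block and GC offset, 1 at an adjusted p below 0.01, and 1 to 6 with single libraries left out. The members' median (0.009) was -0.108 under GC correction and -0.119 when the block was added to it, and -0.071 to 0.078 with single libraries left out. Other pathway genes called (16) numbered 9 with DESeq2's test (19.6% of all genes passed) and 7 at an adjusted p below 0.01 (14.8%). With single libraries left out they numbered 7 to 19 (15.9% to 32.6% of all genes). Members called higher stayed between 4 and 7.

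Of the 9 called members, 5 (Ifi27, Ifitm2, Isg20, Tapbp, Bst2) kept direction and call in all 19 alternatives, and none of the 9 changed sign. Among 418 values of the 22 members not called, 20 passed and 22 changed sign. Stat2 became -0.03 with DESeq2 size factors, DESeq2's test or no count filter, -0.02 with limma-voom, -0.05 without mitochondrial genes and CT010467.1, -0.11 under GC correction (block or not), and -0.18 to 0.21 with libraries left out. H2-D1 became -0.08 under GC correction, -0.12 when the block was added, -0.03 with the length offset, and -0.06 to 0.32 with libraries left out. Tyk2 became -0.15 under GC correction (block or not), and Stat3 0.1 and Rnf213 0.15 with the length offset; with libraries left out, Tyk2 ran from -0.04 to 0.19, Ifngr2 from -0.04 to 0.24, and Stat3 from -0.24 to 0.06. The cause was not tested.

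With the replicate number as a block, 9 members were called, 6 higher and 3 lower, the median was 0.005, and no call of a member changed. Deviations of equally numbered libraries correlated at 0.1, 0.02 and 0.07, so the numbers were not taken to pair the libraries. Depth limits the 10 members under the count filter.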
